A study of Mus musculus with 6 samples.

Results

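The expression of proteasome genes was examined by RNA-seq in mouse gut organoids in which an active YAP was or was not induced. The members were the genes whose Entrez ID maps to a mouse symbol made of Psma, Psmb, Psmc, Psmd, Psme, Psmf or Psmg and a number. This gave 48 of the 24594 genes in the table, and the 45 with 10 or more counts in at least 3 libraries are described. The other 3 were the testis subunit gene Psma8, with 0 counts in every library, the thymus subunit gene Psmb11, with 2 counts in control replicate 3 and 0 elsewhere, and the immunoproteasome gene Psmb8, which reached 10 counts in 2 libraries and is given below by its counts.

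All 6 samples were epithelial organoids of the proximal small intestine of the genotype TetON-hYAP/H2B-mCherry, so control and treated organoids carried the same inducible human YAP and red fluorescent histone transgenes. YAP is a transcriptional coactivator that the Hippo kinases restrain, and its transgenic form is a mutant that the series calls constitutively active. The doxycycline group (3 libraries) had 1 µg/ml doxycycline for 48 h from passaging, and the control group (3 libraries) had none. The culture medium held EGF, Noggin and R-spondin1. The labels give no age, do not say in which cells of the organoid the transgene was induced, and do not say whether the 3 libraries of a group came from separate animals, so p-values measure the spread between these libraries. No group had doxycycline without the transgene, so the drug and YAP cannot be told apart.

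The proteasome is the barrel-shaped protease that degrades ubiquitin-tagged proteins. Its 20S core has outer rings of alpha subunits that gate the entry and inner rings of beta subunits, of which Psmb5, Psmb6 and Psmb7 cut peptide bonds. The 19S cap binds ubiquitin chains, removes them and unfolds the substrate with a ring of ATPases. Immune signals such as interferon gamma replace the cutting subunits with Psmb8, Psmb9 and Psmb10 to form the immunoproteasome, which yields peptides for MHC class I. When proteasome activity falls short, the transcription factor NRF1 (gene Nfe2l1) raises most subunit genes together. Renewing epithelia such as the intestine rely on the proteasome for cell cycle progression and for turnover of short-lived proteins, beta-catenin among them.

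Few proteasome genes passed the test for a change with doxycycline. By edgeR's quasi-likelihood test, at a Benjamini-Hochberg adjusted p under 0.05 among the 12909 genes that passed the expression filter, 4 of the 45 members (8.89%) were lower and 0 were higher. Over all genes tested, 23.6% were lower and 21.7% higher. The groups did not overlap for 10 members that were lower and 1 that was higher with doxycycline, where this held for 31.3% and 30.0% of all genes (61.3% in either direction). The 4 were Psmg2 and Psmg3, chaperones that assemble the 20S core, Psme3, the gene of the nuclear activator PA28 gamma, and Psmd11, a scaffold of the 19S lid. At an unadjusted p under 0.05, 6 members were lower and 0 higher, and DESeq2 and limma-voom called 6 and 3 lower and 0 higher. Of all 12909 genes, DESeq2 called 3465 lower and 3261 higher, and limma-voom 2895 lower and 2912 higher. The median log2 fold change was -0.42 over the members and -0.08 over all genes tested.

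That median rested on 1 library. Without control replicate 3 it was -0.0019 over the members and -0.02 over all genes, and 11 members (24.4%) were called, 7 lower and 4 higher, where 69.9% of all genes were called (35.1% lower and 34.9% higher). The 4 genes called with all libraries were among the 7 that were then lower, and the others were Psma3, Psmd7 and Psme1. The 4 higher members were then Psma4, Psmc4, Psmd8 and Psmd13. Without doxycycline replicate 1 or 3 no member was called (3 and 4 lower and 0 higher at an unadjusted p under 0.05), and without doxycycline replicate 2 Psmg2 alone was called. Among all genes, 4245, 3862 and 3836 were called without doxycycline replicate 1, 2 and 3.

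**Figure D1:**
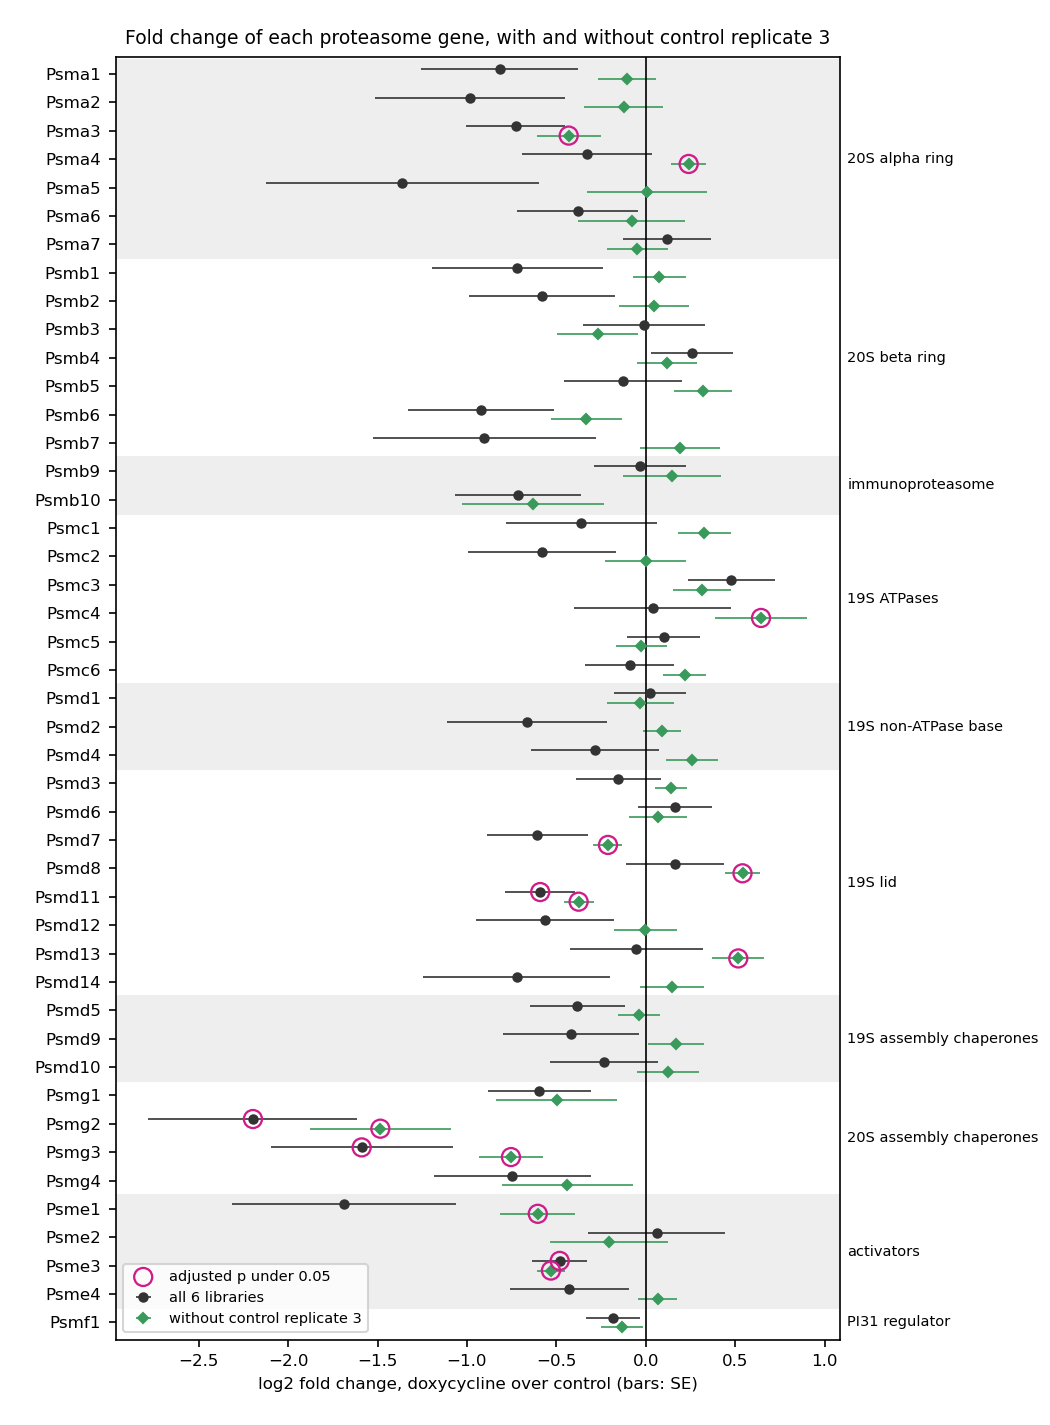
Fitted log2 fold change of each of the 45 members (x axis, doxycycline over control, bars are SE), ordered by role on the y axis, with all 6 libraries (circles) and without control replicate 3 (diamonds). Rings mark an adjusted p under 0.05: 4 members with all libraries, all lower, and 11 without that library, 7 lower and 4 higher.

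The libraries held 8533452 to 16803062 counts, of which 13176 to 23070 fell on the 45 members. Control replicate 3 stood apart from both other control libraries (Pearson r of log2 CPM over all tested genes 0.916 and 0.919, against 0.991 between control replicates 1 and 2 and 0.986 to 0.990 among the doxycycline libraries). Levels are given as CPM, counts scaled to TMM-adjusted library sizes. The epithelial markers Epcam, Cdh1, Krt8, Krt18, Vil1 and Cdx2 were all expressed, with a summed level of 2705 to 3266 CPM in control and 9191 to 9823 CPM in doxycycline libraries. Krt8 (731 to 4691 CPM in the mean) and Krt18 (262 to 1953 CPM) made up most of that difference, Cdh1 and Vil1 also passed the test, and Epcam (-0.14, adjusted p = 0.745) and Cdx2 (0.37, adjusted p = 0.107) did not. Of 6 mesenchymal markers none passed the expression filter, and Col1a1, Dcn and Lum were at 0. The 4 endothelial markers summed to at most 2.26 CPM, with Kdr at 0 and Tek higher with doxycycline. The immune list summed to 21.0 to 41.3 CPM in control and 46.9 to 51.9 CPM with doxycycline. That sum lay mostly in Csf1r and Laptm5, while the defining leukocyte gene Ptprc was at 0 counts in 5 libraries and at 0.141 CPM in doxycycline replicate 3. In bulk samples a change in the share of a cell type and a change in RNA per cell cannot be told apart.

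Against the mean of control replicates 1 and 2, the members' log2 level (log2 of CPM + 0.5) in control replicate 3 had a median difference of 0.93, with 36 of 45 above, 22 of them more than 2-fold. Over all genes tested the median difference in that library was -0.005 and 12.6% were more than 2-fold higher. The 9 members below were Psma7, Psmb3, Psmb4, Psmc3, Psmc5, Psmd1, Psmd6, Psme2 and Psme3. In the doxycycline libraries the members' medians were 0.08, -0.15 and -0.01, with 0 members more than 2-fold higher. The summed level of the members was 1337 and 1369 CPM in control replicates 1 and 2, 2322 CPM in control replicate 3, and 1332, 1220 and 1212 CPM with doxycycline. On this TMM scale the doxycycline libraries thus lay close to control replicates 1 and 2, and control replicate 3 lay above all the others. As a share of raw counts the members took 0.156 and 0.159% in control replicates 1 and 2 and 0.270% in control replicate 3. With doxycycline the share was 0.117, 0.104 and 0.102%, below every control library.

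**Figure D2:**
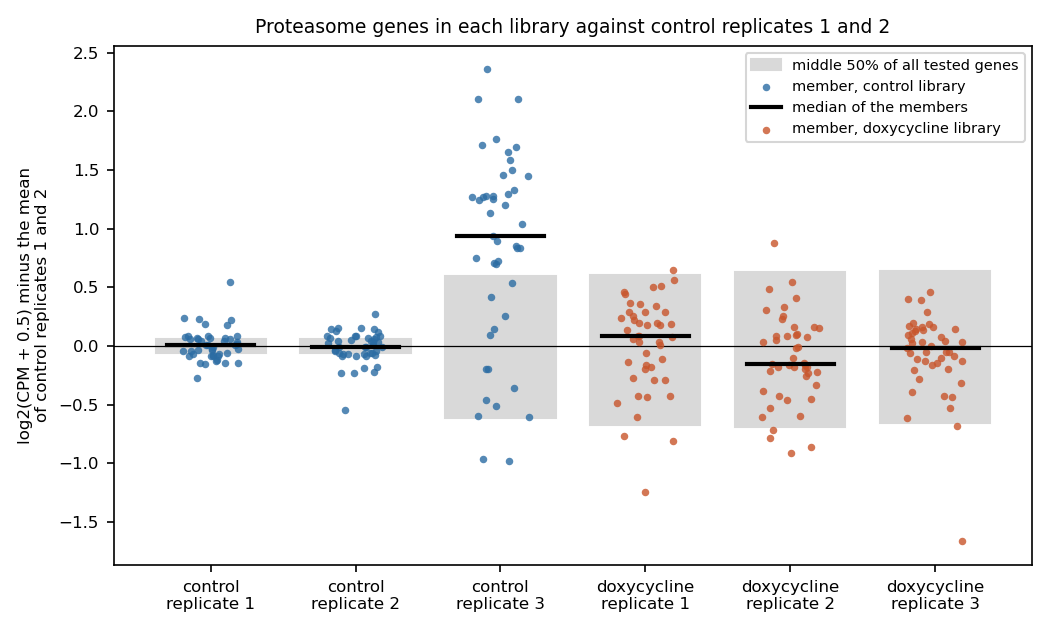
Difference in log2(CPM + 0.5) of each member (points) from the mean of control replicates 1 and 2, by library, with the members' median (bar) and the middle 50% of all tested genes (grey box). The members of control replicate 3 had a median of 0.93, while the 3 doxycycline libraries had medians between -0.15 and 0.08.

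In that library the difference also went with transcript length over all tested genes (Spearman rho -0.46 over 12724 genes with a length, a description over genes that share 1 library), and not within the members (rho -0.01 over 45 genes). The members' transcripts were short, with a median of 1410 bases against 2825 bases over all tested genes. With a smooth trend with length removed from each library, 4 members were lower and 0 higher, the same 4 as before, and the members' median was -0.28. The part of length in the level of control replicate 3 was not tested.

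The gene upstream regions are shown for the called members with a promoter sequence, Psmd11, Psme3 and Psmg3, and for Psmb5. Psmb5 is the gene of a cutting subunit that did not pass the test, and its region holds 2 of the strings marked below. Each region is the 250 bases before the first listed transcription start, 5′ to 3′ on the gene's strand, from RefSeq on GRCm38.p6. Capitals mark 3 strings on either strand, the ETS family core CCGGAAG, the antioxidant response element TGACNNNGC that NRF1 and NRF2 can bind, and the TEAD string GGAATG. The regions were chr11:80428365-80428614, plus strand (Psmd11), chr11:101315963-101316212, plus strand (Psme3), chr5:139826895-139827144, minus strand (Psmg3) and chr14:54617996-54618245, minus strand (Psmb5).
Psmd11: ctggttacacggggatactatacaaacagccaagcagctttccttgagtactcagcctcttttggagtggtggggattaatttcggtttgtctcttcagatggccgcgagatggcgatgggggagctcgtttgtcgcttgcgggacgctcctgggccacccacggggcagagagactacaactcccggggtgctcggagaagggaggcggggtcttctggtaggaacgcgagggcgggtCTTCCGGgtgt
Psme3: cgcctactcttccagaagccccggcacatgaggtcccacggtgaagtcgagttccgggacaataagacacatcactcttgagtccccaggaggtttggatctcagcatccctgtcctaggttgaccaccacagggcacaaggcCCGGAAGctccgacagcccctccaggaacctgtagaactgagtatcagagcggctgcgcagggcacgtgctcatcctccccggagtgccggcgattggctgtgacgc
Psmg3: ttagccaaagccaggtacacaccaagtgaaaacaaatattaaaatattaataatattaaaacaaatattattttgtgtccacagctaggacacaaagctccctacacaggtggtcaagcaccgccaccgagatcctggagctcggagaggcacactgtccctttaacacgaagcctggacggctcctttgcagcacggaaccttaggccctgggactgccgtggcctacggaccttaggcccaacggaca
Psmb5: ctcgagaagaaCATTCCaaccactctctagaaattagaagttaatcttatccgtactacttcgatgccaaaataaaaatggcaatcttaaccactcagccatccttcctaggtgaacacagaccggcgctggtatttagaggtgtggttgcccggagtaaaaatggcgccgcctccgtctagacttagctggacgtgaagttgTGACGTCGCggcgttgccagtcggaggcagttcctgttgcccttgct

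The ETS core ended 5 bases before the start in Psmd11 and 101 bases before it in Psme3. In Psmb5 the antioxidant string lay 47 to 39 bases and the TEAD string 239 to 234 bases before the start. Psmg3 held none of the 3 strings in this window. Of the 45 members, 38 had a sequence in the table (Psmb1, Psmb2, Psmb7, Psmc3, Psmd3, Psmd7 and Psmg2 had none). The ETS core was in 11 of the 38 (28.9%), against 7.05% of the same windows of all 27025 genes and 13.9% of those of the 10267 tested genes with a window. The antioxidant string was in 5 members (13.2%; 10.1% of all and 12.1% of tested genes), namely Psmb5, Psmb6, Psmc6, Psmd9 and Psmd12, none of them called. The TEAD string was in 3 (7.89%; 12.6% of all and 10.7% of tested genes), namely Psmb5, Psmd8 and Psmd9. The other strings searched were the interferon-stimulated response element (3 members, 7.89%, against 3.04% of all and 2.41% of tested genes), CCAAT (13 members, 34.2%, against 34.5 and 36.7%), the E-box CACGTG (4 members, 10.5%, against 6.05 and 8.503%), the palindrome of nuclear respiratory factor (1 member, 2.63%, against 0.781 and 1.58%) and the AP-1 string TGACTCA (1 member, 2.63%, against 4.43 and 3.16%). TGACTCA followed by GC also matches the antioxidant string. These are matches of letters, chosen after the fold changes were known.

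Of the 4 assembly chaperone genes of the 20S core, 2 were called lower and 2 did not pass, where 23.6% of all genes tested were lower. The median log2 fold change of the 4 was -1.17 (-0.63 without control replicate 3). Psmg2, whose product PAC2 pairs with PAC1 to line up the alpha ring, had 3.22, 3.93 and 10.6 CPM without and 1.21, 1.85 and 0.777 CPM with doxycycline. Every doxycycline library lay below every control library. It fell by 2.20 on the log2 scale (SE 0.584, edgeR adjusted p = 0.0206), by 1.48 without control replicate 3 (adjusted p = 0.00256), and its counts were low, with 12, 20 and 11 in the doxycycline libraries. The call was lost without doxycycline replicate 1 or 3 (adjusted p up to 0.0815). Psmg3 (chromosome 5, 139823613 to 139826894) encodes PAC3, which works with PAC4 in ring assembly. Its levels were 15.1, 13.7 and 47.6 CPM in control and 7.99, 7.40 and 9.82 CPM with doxycycline. The groups did not overlap, and control replicate 3 was 3.31-fold above the other controls. Psmg3 fell by 1.59 (SE 0.508, adjusted p = 0.0395), and by 0.75 without control replicate 3 (SE 0.180, adjusted p = 0.00103). The call was lost without any 1 doxycycline library (adjusted p up to 0.129) and with limma-voom. Of the 2 that did not pass, Psmg1 (PAC1) had 3.63, 2.54 and 3.72 CPM and then 2.02, 2.31 and 2.19 CPM, groups that did not overlap (log2 fold change -0.60, adjusted p = 0.131). Psmg4 (PAC4) had 4.85, 2.00 and 6.04 CPM and then 2.53, 2.04 and 3.04 CPM, groups that overlapped (-0.75, adjusted p = 0.205). Psmg1 was called lower with total counts (edgeR adjusted p = 0.0199), and Psmg4 without control replicate 2 (-1.09, adjusted p = 0.0433).

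The activators open the gate of the core without the 19S cap. Psme3 (chromosome 11, 101316213 to 101323537) had the highest CPM of the members, with 321, 316 and 278 CPM in control and 237, 211 and 207 CPM with doxycycline. All control libraries lay above all doxycycline libraries, and control replicate 3 was here the lowest control. Psme3 fell by 0.48 on the log2 scale (SE 0.153, edgeR adjusted p = 0.0375), and by 0.53 without control replicate 3 (adjusted p = 5.04e-06). It did not pass with no low-count filter or without any 1 of the other 5 libraries (adjusted p up to 0.162). Psme1 and Psme2 encode the alpha and beta chains of the interferon-inducible ring PA28. Psme1 had 12.3, 8.78 and 46.5 CPM in control and 6.67, 7.86 and 6.29 CPM with doxycycline, so the groups did not overlap and control replicate 3 was 4.40-fold above the other controls. Its log2 fold change of -1.69 (SE 0.626, adjusted p = 0.0635) did not pass, and was -0.60 without control replicate 3 (adjusted p = 0.0147). Psme1 was also called lower with DESeq2 (adjusted p = 0.0137), with total counts (0.0255), with no low-count filter (0.0488) and without control replicate 1 (0.0480) or 2 (0.0261). Psme2 had 2.75, 2.93 and 1.21 CPM in control and 2.22, 2.50 and 2.54 CPM with doxycycline (0.06, adjusted p = 0.912), and control replicate 3 was here the lowest. So control replicate 3 was the highest library for Psme1 and the lowest for its partner. Psme4, the gene of the single-chain activator PA200, had a log2 fold change of -0.43 (adjusted p = 0.331; 0.07 without control replicate 3). Psmf1, which encodes the proteasome regulator PI31, had 30.6, 33.7 and 34.4 CPM and then 28.6, 27.6 and 30.7 CPM, groups that overlapped (-0.18, adjusted p = 0.351).

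In the lid of the 19S cap, which holds the enzyme that removes ubiquitin chains, 1 of 8 subunit genes was called lower. Among all genes tested, 23.6% were lower. Psmd11 (Rpn6, chromosome 11, 80428615 to 80473248), which clamps the cap to the core, had 113.0, 111.0 and 163 CPM in control and 91.7, 81.6 and 83.3 CPM with doxycycline. The groups did not overlap. It fell by 0.59 on the log2 scale (SE 0.196, edgeR adjusted p = 0.0443), and by 0.38 without control replicate 3 (SE 0.0833, adjusted p = 5.15e-04), but did not pass with RLE scaling, with no low-count filter or without any 1 of the other 5 libraries. Psmd14 (Rpn11), the deubiquitinase of the lid, had the lowest fold change of the lid genes and wide controls, with 16.1, 16.9 and 57.4 CPM against 23.6, 14.5 and 16.5 CPM (-0.72, SE 0.525, adjusted p = 0.298; 0.15 without control replicate 3). Psmd6 (Rpn7) had the highest, with 12.8, 14.5 and 10.5 CPM against 15.6, 12.6 and 14.1 CPM (0.16, adjusted p = 0.551). Psmd8 (Rpn12), added last to the lid, had 45.7, 53.8 and 92.7 CPM in control and 73.5, 72.4 and 68.6 CPM with doxycycline. It did not pass with all libraries (0.16, adjusted p = 0.662). Without control replicate 3 its doxycycline libraries lay above both controls and it was higher by 0.54 (SE 0.0982, adjusted p = 7.02e-05), as was Psmd13 (Rpn9) by 0.52 (adjusted p = 0.00401). Psmd7 (Rpn8), the partner of the deubiquitinase, was lower there (-0.21, adjusted p = 0.0259; -0.61 and 0.120 with all libraries). Leaving out that library thus left lid genes called in both directions.

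No gene of the cap's base passed with all libraries, where 45.3% of all genes tested were called in either direction. Among the 6 ATPase genes the fitted log2 fold changes ran from -0.58 in Psmc2 to 0.48 in Psmc3. Psmc2 (Rpt1) had 7.37, 5.54 and 16.1 CPM in control and 6.67, 5.64 and 6.93 CPM with doxycycline, groups that overlapped (adjusted p = 0.287). Psmc3 (Rpt5) had 13.5, 14.9 and 9.16 CPM and then 17.4, 20.1 and 14.98 CPM. It was the only member whose doxycycline libraries all lay above the control libraries, and it did not pass the test (SE 0.243, adjusted p = 0.148). Psmc4 (Rpt3) had 3.68, 5.62 and 11.8 CPM against 6.47, 8.79 and 6.15 CPM, and was called higher without control replicate 3 alone (0.64, adjusted p = 0.0324). Of the 3 other base genes, Psmd2 (Rpn1), a docking site for ubiquitin shuttles, had 44.7, 47.8 and 140.2 CPM against 53.1, 48.8 and 44.6 CPM (-0.67, SE 0.447, adjusted p = 0.261; 0.09 without control replicate 3). Psmd1 (Rpn2), the scaffold beside it, had 9.77, 8.85 and 8.05 CPM against 9.51, 8.14 and 9.47 CPM (0.02, adjusted p = 0.940). Psmd4 (Rpn10), a ubiquitin receptor, had a fold change of -0.28 (adjusted p = 0.550). The 3 chaperones that assemble the base, Psmd5, Psmd9 and Psmd10 (gankyrin), had log2 fold changes of -0.42 to -0.24 and none passed. With total counts Psmd5 was called lower (edgeR adjusted p = 0.0375). Psmd9 was the lowest, with 12.6, 12.5 and 31.1 CPM against 14.3, 13.5 and 14.1 CPM, and Psmd10 the highest, with 12.2, 12.7 and 22.8 CPM against 16.2, 12.3 and 11.9 CPM. In all 3, control replicate 3 was the highest library.

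None of the 14 genes of the constitutive 20S core passed in the edgeR fit with TMM scaling of all libraries. Among all genes tested, 45.3% were called in either direction there. In that fit 12 of the 14 fold changes were negative, against 7 of 14 without control replicate 3. In the alpha ring the lowest was Psma5, with 2.87, 3.62 and 18.6 CPM in control and 4.05, 1.94 and 3.60 CPM with doxycycline (-1.36, SE 0.762, edgeR adjusted p = 0.185; 0.01 without control replicate 3). Control replicate 3 was 5.74-fold above the other controls, the largest such ratio among the members. The highest was Psma7, with 13.5, 12.4 and 8.35 CPM against 11.2, 14.4 and 11.6 CPM (0.12, adjusted p = 0.724). Psma3 had groups that did not overlap (-0.73, adjusted p = 0.0693; -0.43 and 0.0385 without control replicate 3). Psma3 was also called lower with DESeq2 (adjusted p = 0.0464). With total counts Psma3 (edgeR adjusted p = 0.0113) and Psma1 (0.0472) were called lower. Psma4 was called higher without that library (0.24, adjusted p = 0.0360), and had -0.33 with it (adjusted p = 0.489).

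Among the beta ring genes, Psmb5, which encodes the chymotrypsin-like cutting subunit, had 14.1, 13.2 and 28.6 CPM in control and 19.7, 16.1 and 15.1 CPM with doxycycline (-0.13, SE 0.330, adjusted p = 0.775; 0.32 and 0.0868 without control replicate 3). Psmb6, of the caspase-like site, had 11.1, 8.54 and 24.7 CPM and then 7.08, 8.42 and 7.70 CPM, the lowest fold change of the ring (-0.92, SE 0.408, adjusted p = 0.106; -0.33 without control replicate 3). Psmb6 was called lower with total counts (edgeR adjusted p = 0.0268) and without control replicate 2 (0.0472). Psmb7, of the trypsin-like site, had 8.13, 5.77 and 31.1 CPM and then 9.51, 7.03 and 7.35 CPM (-0.90, SE 0.623, adjusted p = 0.274; 0.19 without control replicate 3). For all 3 cutting subunits control replicate 3 was the highest library. The structural subunit gene Psmb4 had the highest fold change of the ring, with 11.5, 12.8 and 8.35 CPM against 14.6, 12.0 and 12.5 CPM (0.26, adjusted p = 0.388).

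The immunoproteasome genes were low, and none passed in the edgeR fit with TMM scaling of all libraries. Psmb9 (chromosome 17, 34182030 to 34187330) had 3.98, 3.46 and 5.13 CPM in control and 3.94, 3.98 and 4.31 CPM with doxycycline (-0.03, SE 0.257, adjusted p = 0.931). Psmb10 (chromosome 8, 105935728 to 105938392) had 2.57, 2.62 and 2.92 CPM and then 1.31, 1.20 and 2.33 CPM, groups that did not overlap (-0.71, SE 0.352, adjusted p = 0.138). With total-count scaling Psmb10 was called lower (-1.16, edgeR adjusted p = 0.0265), where 5131 of all 12909 genes were lower. Psmb8 (chromosome 17, 34198195 to 34201454) had 22, 6 and 14 counts in the control libraries and 4, 0 and 0 counts with doxycycline, and did not reach the expression filter. With no filter its adjusted p was 0.0602 (fitted log2 fold change -3.02, a value that depends on the fit's handling of 0 counts). It entered 4 of the fits with a library left out, and was called lower without control replicate 2 (adjusted p = 0.0498) and without doxycycline replicate 1 (0.0280), and not without doxycycline replicate 2 (0.154) or 3 (0.158). Per kilobase of transcript, the control means of Psmb9 (3.10 CPM per kb) and Psmb10 (2.06) lay below those of their constitutive counterparts Psmb6 (18.5) and Psmb7 (12.9), and Psmb8 (0.647) lay below Psmb5 (20.7). The order was the same without control replicate 3, with 2.75 for Psmb9 and 12.3 for Psmb6, 1.98 for Psmb10 and 5.99 for Psmb7, and 0.537 for Psmb8 and 15.2 for Psmb5.

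The ratio of each immunoproteasome subunit gene to the gene it replaces needs no scaling factor between libraries. The count added to each gene still makes it depend on depth where counts are near 0. The log2 ratio of Psmb8 to Psmb5 counts, with 0.5 added to each, was -3.42, -4.73 and -4.29 in control and -5.44, -8.45 and -8.74 with doxycycline, a mean difference of -3.39. That of Psmb9 to Psmb6 was -1.47, -1.29 and -2.25 in control and -0.84, -1.07 and -0.83 with doxycycline, a mean difference of 0.76. So the groups did not overlap for these pairs, in opposite directions. That of Psmb10 to Psmb7 overlapped (-1.65, -1.13 and -3.39 against -2.81, -2.50 and -1.64, mean difference -0.26). In two-sided exact permutation tests of 3 against 3 libraries p was 0.1 for the first 2 pairs, the smallest this design allows, and 0.9 for the third (0.15, 0.15 and 0.9 adjusted over the 3 pairs), so no ratio can be called. The size for Psmb8 depends on the added count, since 2 of its doxycycline libraries were at 0.

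Levels differed widely between subunits of the same ring. Per kilobase of transcript, the control means of the alpha ring genes ran from 4.95 CPM per kb in Psma2 to 64.8 in Psma4, a 13.1-fold range. In the beta ring they ran from 7.61 in Psmb3 to 25.2 in Psmb1 (3.31-fold), among the ATPases from 4.88 in Psmc4 to 14.6 in Psmc1 (2.98-fold), and in the lid from 9.06 in Psmd6 to 126 in Psmd7 (14.0-fold). The control means without replicate 3 ran from 2.62 in Psma5 to 43.9 in Psma4 in the alpha ring, from 5.99 in Psmb7 to 15.2 in Psmb5 in the beta ring, from 3.23 in Psmc4 to 14.4 in Psmc5 among the ATPases and from 6.27 in Psmd12 to 97.0 in Psmd7 in the lid, so the lowest gene changed in 3 of these groups and the highest in 2. With doxycycline the same scale ran from 2.47 to 51.5 CPM per kb in the alpha ring and from 6.23 to 82.9 in the lid. Reads of near-identical copies may be part of these levels, since 6 pseudogenes named after members are annotated, and 8 members overlap another gene with a row in the table, Psme1 with Emc9 among them.

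**Figure D3:**
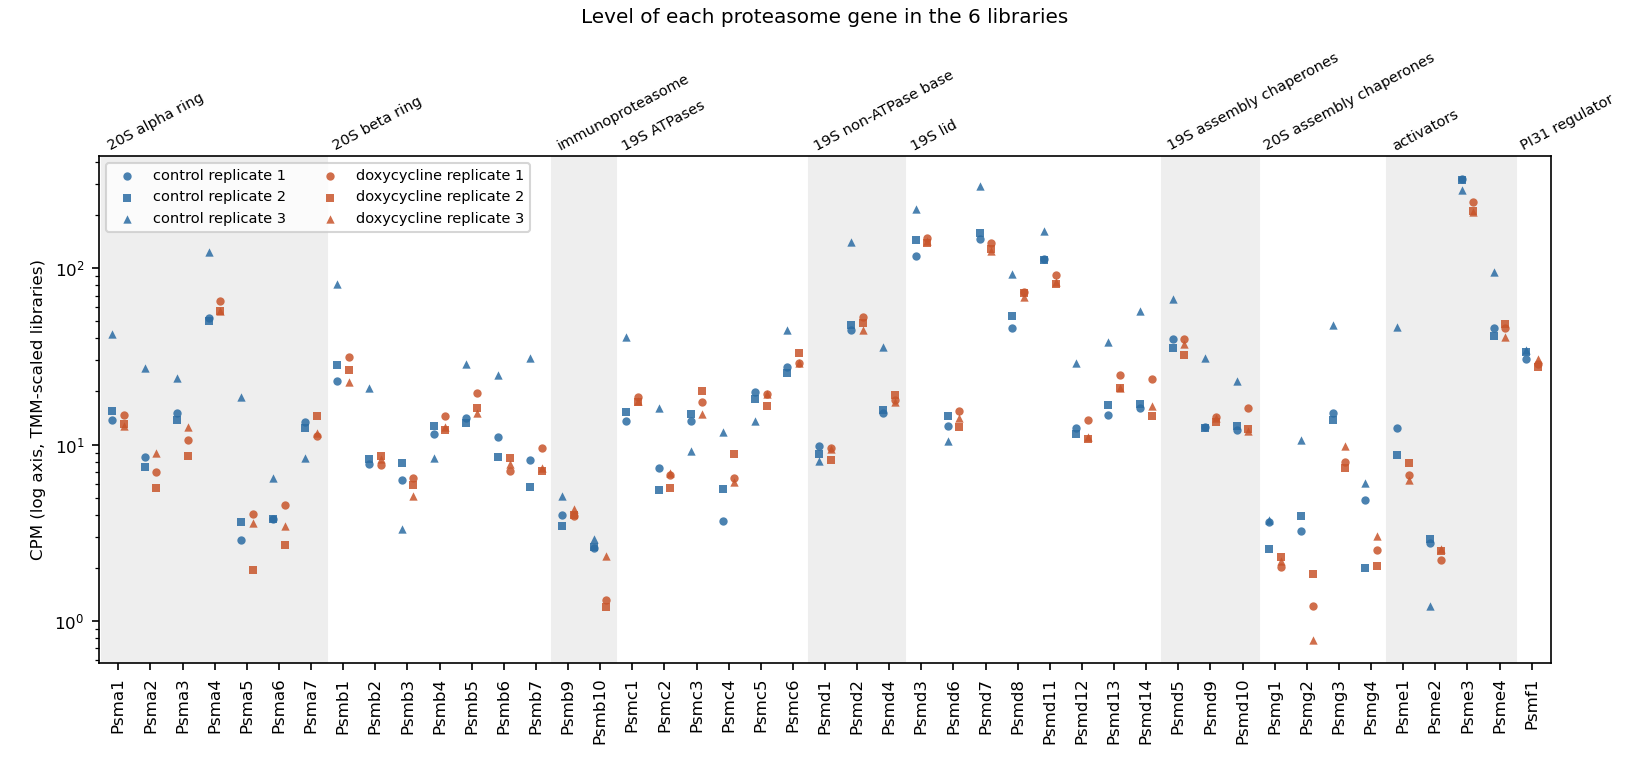
Level of each of the 45 members in CPM (y axis, log scale) in the 6 libraries, grouped by role along the x axis (circles, squares and triangles are replicates 1, 2 and 3). Control replicate 3 lies above the other 2 controls for most members, and below them for 9 such as Psmb3, Psmc3, Psme2 and Psme3.

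Of 5 regulators of proteasome genes 2 rose, where 21.7% of all genes tested were higher. Nfe2l1, which encodes the transcription factor NRF1 that drives the recovery of subunit genes, had 351, 319.9 and 187 CPM in control and 495, 569 and 573 CPM with doxycycline. It rose by 0.93 on the log2 scale (SE 0.255, edgeR adjusted p = 0.0228), and by 0.72 without control replicate 3. This call was lost without any 1 doxycycline library (adjusted p up to 0.0796). It was also lost with total-count scaling, where the log2 fold change was 0.49. Nfe2l2, of the related oxidative stress factor NRF2, had 403, 435 and 353 CPM and then 1077, 1064 and 1110 CPM, and rose by 1.45 (SE 0.157, adjusted p = 5.28e-04), a call kept in all 14 alternative settings. In both genes every doxycycline library lay above every control library. The genes that process NRF1, Ngly1 and Ddi2, and the unfoldase gene Vcp did not pass (Vcp -0.33, adjusted p = 0.266) and 0 of the 5 were lower. The median log2 fold change of this list was 0.17.

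Of 18 measured genes for proteins that work on or near the proteasome, 1 was higher and 2 lower (median log2 fold change 0.09), where 21.7% of all genes were higher and 23.6% lower. Zfand2a, which encodes the stress-induced 19S-associated protein AIRAP, had 26.8, 24.6 and 22.7 CPM in control and 83.0, 91.5 and 87.6 CPM with doxycycline. It rose by 1.82 (SE 0.151, edgeR adjusted p = 2.00e-04), and its groups were far apart. Fbxo7, whose product binds PI31, had 17.5, 14.6 and 22.9 CPM and then 9.81, 8.14 and 9.19 CPM, and fell by 1.02 (SE 0.230, adjusted p = 0.0107; 0.0556 without doxycycline replicate 2). Uchl5, a deubiquitinase of the cap, had 5.03, 5.003 and 9.56 CPM and then 3.03, 2.87 and 2.26 CPM, and fell by 1.26 (SE 0.348, adjusted p = 0.0239), a call lost without any 1 doxycycline library (adjusted p up to 0.0957). For these 3 genes the groups did not overlap. The ubiquitin receptor gene Adrm1 and the core assembly gene Pomp did not pass (0.11 and -0.26). Without control replicate 3 the list had 7 higher and 6 lower, Pomp among the higher, where 34.9% of all genes were higher and 35.1% lower.

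None of the 4 ubiquitin genes passed in the edgeR fit with TMM scaling of all libraries, where 45.3% of all genes tested were called. Without control replicate 3, 2 of them were higher and 1 lower, beside 34.9% and 35.1% of all genes. The polyubiquitin gene Ubb had 478, 492 and 1033 CPM in control and 648, 618 and 561 CPM with doxycycline, groups that overlapped (-0.13, adjusted p = 0.761; 0.34 and 4.41e-04 without control replicate 3). The fusion gene Rps27a had -0.82 (adjusted p = 0.1002; -1.08 and passed without that library). Of 8 cofactors of Vcp none passed in that fit, beside 21.7% higher and 23.6% lower among all genes tested. The smallest adjusted p were those of Nploc4 (0.32, 0.122), Faf2 (0.27, 0.148) and Nsfl1c (-0.73, 0.164). Without control replicate 3, 2 cofactors were higher and 0 lower, beside 34.9% and 35.1% of all genes. These were Nploc4 (0.34, edgeR adjusted p = 0.00180) and Faf2 (0.27, 0.00572).

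Of 12 measured genes of antigen processing and its interferon regulators, 2 were higher and 0 lower (median 0.10), beside 21.7% and 23.6% of all genes. Without control replicate 3, 7 were higher and 3 lower, beside 34.9% and 35.1% of all genes. Ifngr1, a chain of the interferon gamma receptor, had 192, 189 and 219 CPM in control and 570.1, 529 and 556 CPM with doxycycline and rose by 1.46 (SE 0.152, adjusted p = 4.45e-04). Tap2, a chain of the peptide transporter, had 1.81, 2.16 and 3.82 CPM and then 7.38, 5.27 and 5.02 CPM and rose by 1.20 (SE 0.360, adjusted p = 0.0321), a call that held in 1 of the 6 fits with a library left out. Ifngr2, the other receptor chain, had 124, 118 and 162 CPM and then 198, 181 and 181 CPM (0.47, adjusted p = 0.0661). For these 3 genes the groups did not overlap. Of the immune marker list Laptm5 and Cd52 rose, at up to 23.5 and 1.77 CPM, with Ptprc at or near 0, and their part in the antigen processing genes was not tested.

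**Figure D4:**
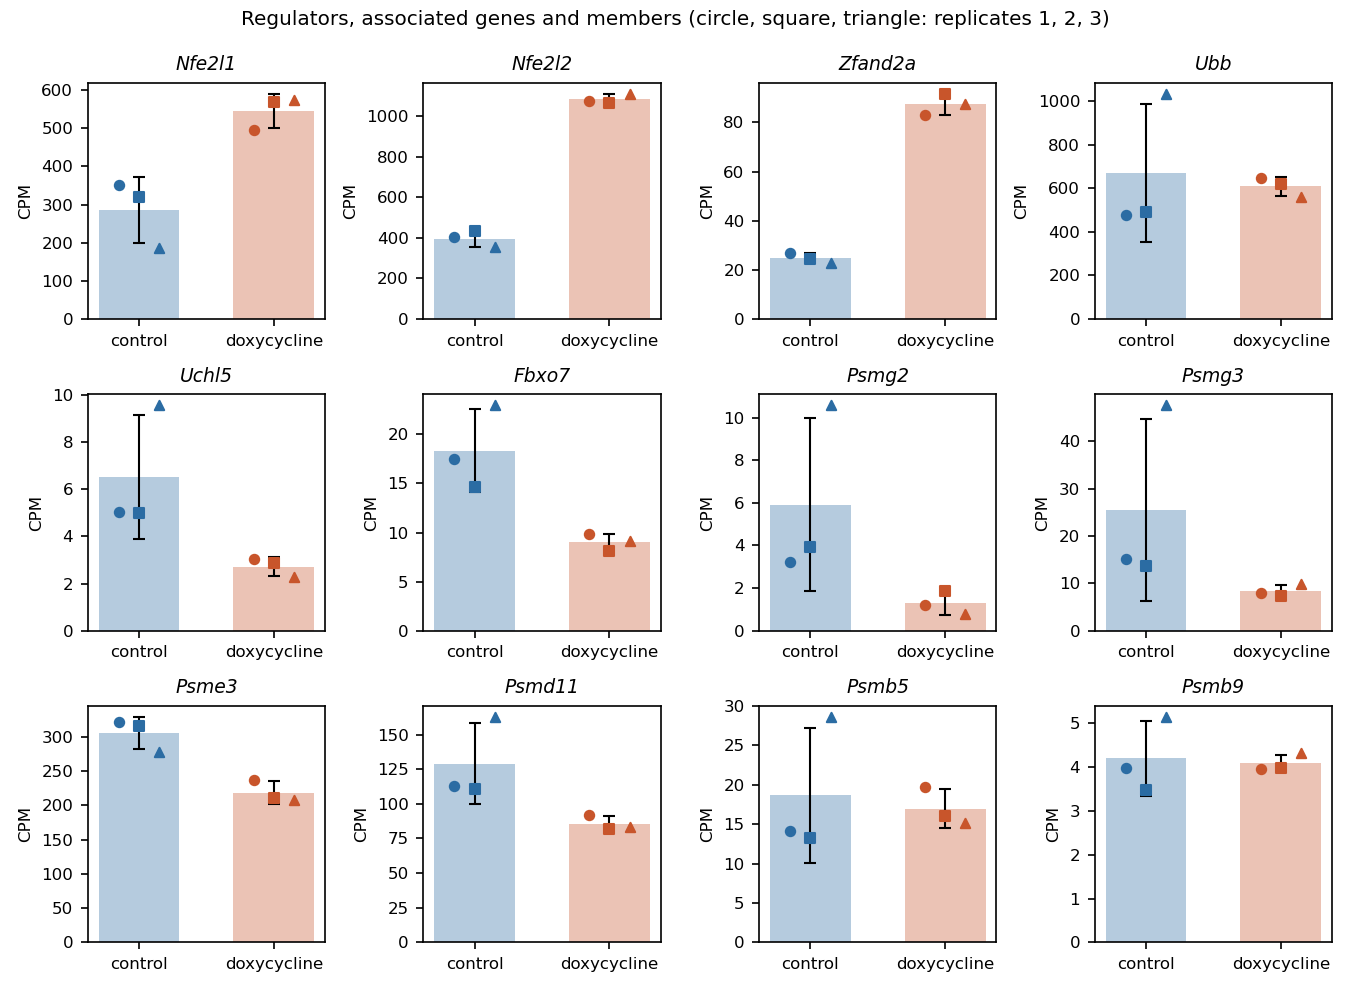
CPM per library (points, replicates 1 to 3), group mean (bar from 0) and SD (line) of 12 genes, in control and doxycycline libraries. Nfe2l1, Nfe2l2 and Zfand2a were higher with doxycycline, Uchl5, Fbxo7, Psmg2, Psmg3, Psme3 and Psmd11 were lower, and Ubb, Psmb5 and Psmb9 did not pass the test.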

How the data were processed

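RNA-seq libraries of 6 organoid samples, 3 per group, were prepared by TruSeq RNA and read on a NextSeq instrument, per the labels' protocols. The authors deposited 1 table of whole-number read counts per Entrez gene ID. The submitters' processing notes name the build mm10. For aligner, counter, annotation, strand and filters the setting is not given in the sources used here. Overlapping genes and near-identical copies are therefore uncertain. RefSeq's gene table of GRCm38.p6 gave symbols and positions for 24570 of the 24594 IDs; the other 24 took 2.88 to 4.43% of each library's counts. They stayed in the tests under their IDs. Transcript lengths were medians over GENCODE vM21 transcripts with a RefSeq record.

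Counts were tested with edgeR 4.0.16 in R 4.3.3 (expression filter by group, TMM scaling, robust quasi-likelihood F-test). SE is the log2 fold change over the square root of F. The TMM factors were 1.16 to 1.17 in control and 0.843 to 0.879 in doxycycline libraries. The members, lists and tests were chosen with earlier results of these data known. Every member could be named; the catalytic subunit genes and the extremes of each role group are given by library, as are the members called, and up to 3 genes of each of 5 related lists were taken by smallest adjusted p, and others were named after their values were seen. Some genes of these lists are not reported here. Alternatives were RLE factors, total counts, other filters, DESeq2 1.42.0, limma-voom (limma 3.58.1), the replicate number as a block, removal of a length trend, and each library left out. No 2 libraries of a group agreed within counting noise (chi-square per gene 3.82 to 144).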

Additional observations from a re-analysis of the deposited data

How the results depend on the processing

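With 0 members called higher in the fits that kept all libraries, the count of lower members ranged from 1 to 13 over the settings tried. Scaling by total counts gave 13 lower members and moved the median of all genes to -0.52. It turned the split over all genes from 2800 higher and 3050 lower into 1747 higher and 5131 lower. The lower members with total counts were the 4 called with TMM scaling and Psma1, Psma3, Psmb6, Psmb10, Psmd5, Psmd7, Psme1, Psmf1 and Psmg1. The members' median was -0.86 there, lower than that of all genes, in a fit that kept control replicate 3. With TMM scaling and without that library, the medians were -0.0019 over the members and -0.02 over all genes. Total counts without that library were not run. In the related lists, 5 genes were higher and 2 lower with TMM scaling of all libraries, against 3 and 14 with total counts. With DESeq2 12 were higher and with the length trend removed 8, where 3261 and 3161 of all 12909 genes tested were higher. The replicate numbers did not pair the libraries (correlations of their deviations -0.30, 0.12 and -0.19), and with the replicate block 1 member, Psmg3, was lower, 1 related gene was lower, and 4509 genes were called in all. Leaving out each library in turn gave 3836 to 9286 called genes, 0 to 4 higher and 0 to 7 lower members, 3 to 20 higher and 0 to 10 lower related genes, a median of -0.59 to -0.0019 over the members, and log2 ratios of -4.45 to -2.79 for Psmb8 to Psmb5, 0.47 to 0.95 for Psmb9 to Psmb6 and -0.93 to 0.20 for Psmb10 to Psmb7. Without control replicate 3 the fold changes of Psma4 (0.24), Psmd13 (0.52) and Ubb (0.34) were positive and passed, against ranges that reached down to -0.56, -0.30 and -0.33 without other libraries. With 2 added counts the Psmb8 to Psmb5 difference was -2.10. The cause of these changes was not tested. Low counts limit Psma6, Psmb8, Psmb9, Psmb10, Psme2, Psmg1, Psmg2 and Psmg4, each with at most 105 counts in any library.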
